A study of Homo sapiens with 24 samples.

Results

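The proteasome genes were taken as every gene with a probe set of its own whose symbol starts with PSMA, PSMB, PSMC, PSMD or PSME, which gave 44 of the 19775 genes on the array. After a filter on low values, under which a gene needed a log2 level of 4 or more on at least 3 arrays, 43 of them were tested among 10661 genes. They comprised 7 alpha and 7 beta subunits of the 20S core, 14 subunits of the 19S regulatory particle, 4 immune genes (PSMB8, PSMB9, PSMB10 and PSME1), 3 chaperones that assemble the 19S base, the activators PSME3 and PSME4, and 6 genes that share the prefix without encoding a subunit. The gene that was not tested, the divergent transcript PSMD7-DT, lay at the floor of 2.18 on all 24 arrays. A further immune gene, PSME2, and the alpha subunit PSMA6 had only probe sets annotated to more than 1 gene and were not analysed here. The ATPase PSMC5, the lid genes PSMD7 and PSMD13 and the beta subunit PSMB11 also had no probe set of their own. Counts of subunits below are therefore of the tested genes and not of the whole particle.

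The study treated 4 established human T-cell acute lymphoblastic leukaemia lines with the compound NVS-ZP7-3 or with the solvent alone. Each line gave an NVS-ZP7-3 group and a DMSO group of 3 arrays, and the lines were TALL-1, RPMI-8402, P12-ICHIKAWA and SUPT11, which the labels write as TALL1, RPMI.8402, P12.ICHIKAWA and SUPT11. All cells were exposed for 16 h, and treated and control cultures alike held 0.5% DMSO; the labels give no dose, target or genotype. NVS-ZP7-3 is known as an inhibitor of SLC39A7 (ZIP7), a zinc transporter of the endoplasmic reticulum. Whether the 3 arrays of a group were separate cultures is not stated, so p-values measure a spread that may be technical.

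The proteasome degrades proteins tagged with ubiquitin. Its barrel-shaped 20S core carries the proteolytic sites inside a ring of beta subunits, and the 19S particle, made of a base with an ATPase ring and a lid with a deubiquitinase, recognises, unfolds and feeds in the substrates. In lymphoid cells the constitutive catalytic subunits can be replaced by PSMB8, PSMB9 and PSMB10, whose genes are induced by interferon and whose products shape the peptides presented on MHC class I, and the transcription factor NFE2L1 is known to raise proteasome genes together when proteasome activity is short.

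Arrays of a group correlated at 0.993 to 0.998 across genes. T-lineage markers were present in every group, 8 of 9 reaching log2 4 on some or all of its arrays. The marker below it on all 3 arrays was CD5 in both TALL-1 groups, CD1A in those of SUPT11 and RPMI-8402, and CD2 in those of P12-ICHIKAWA. The summed level of the list was 15.6 to 15.7 with NVS-ZP7-3 against 16.0 with DMSO in TALL-1, and 15.4 against 15.6 to 15.7 in RPMI-8402. On 3 arrays, TALL-1 NVS-ZP7-3 replicate 2, SUPT11 NVS-ZP7-3 replicate 2 and RPMI-8402 DMSO replicate 3, between 11.5 and 12.8% of the genes silent in that line and bright in another were raised, against at most 1.10% on any other array. Haemoglobin HBB, an erythroid transcript, spanned 7.96 to 11.4 on the P12-ICHIKAWA NVS-ZP7-3 arrays, against 2.18 to 2.29 on the DMSO arrays, with the erythroid genes HBD and ALAS2 below 4 in both groups. LYZ, a myeloid transcript, read 5.50 to 8.01 with NVS-ZP7-3 against 2.28 to 2.99 with DMSO in that line, with the other 5 myeloid markers below 4 in both groups. In RPMI-8402 HBB read 8.63 to 13.0 with NVS-ZP7-3, against 9.42, 2.32 and 14.7 with DMSO. LYZ there read 4.91 to 9.88 with NVS-ZP7-3, against 4.28, 2.18 and 12.5 with DMSO. HBD, ALAS2, S100A8 and S100A9 stayed below 4 on every NVS-ZP7-3 array of that line but not on every DMSO array. The gap between the 3' and 5' probe sets of ACTB, which widens as RNA degrades, exceeded that of DMSO arrays by 0.487 in TALL-1, 0.302 in RPMI-8402, 0.048 in SUPT11 and 0.044 in P12-ICHIKAWA under NVS-ZP7-3, while that of GAPDH differed by at most 0.042. The gap was thus widest in the lines with the most calls below, and its part in them was not tested beyond the fits with it as a covariate. In bulk RNA, fewer cells of a kind and less RNA per cell cannot be told apart.

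Proteasome genes were lowered by NVS-ZP7-3 in TALL-1 and RPMI-8402, by small amounts. In TALL-1, 18 of 43 fell and 2 rose, against 19.6% and 22.3% of all genes tested. In RPMI-8402, 21 of 43 fell and 2 rose, against 21.5% and 15.1% of all genes. In P12-ICHIKAWA, 2 fell and 1 rose, against 2.98% and 4.91% of all genes. In SUPT11 none of the 43 was called by limma, against 1.18% of all genes higher and 0.582% lower (1.76% in either direction); 1 was below an unadjusted p of 0.05, and no fit of the same values with an intensity trend or of the SUPT11 arrays alone called any. The share called lower was thus 41.9% in TALL-1 and 48.8% in RPMI-8402, above the background in both. Of the 43 genes, 40 had a mean level of log2 8 or more. The background of all genes tested was not matched for level, and the part of level in the excess was not tested. In either direction the calls were 20 of 43 in TALL-1, 23 in RPMI-8402, 3 in P12-ICHIKAWA and 29 on average over the lines, against 41.9, 36.6, 7.89 and 46.9% of all genes. Calls are from limma on the deposited log2 values, with Benjamini-Hochberg adjusted p below 0.05 over all genes tested, and every change is NVS-ZP7-3 minus DMSO on that log2 scale.

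**Figure D1:**
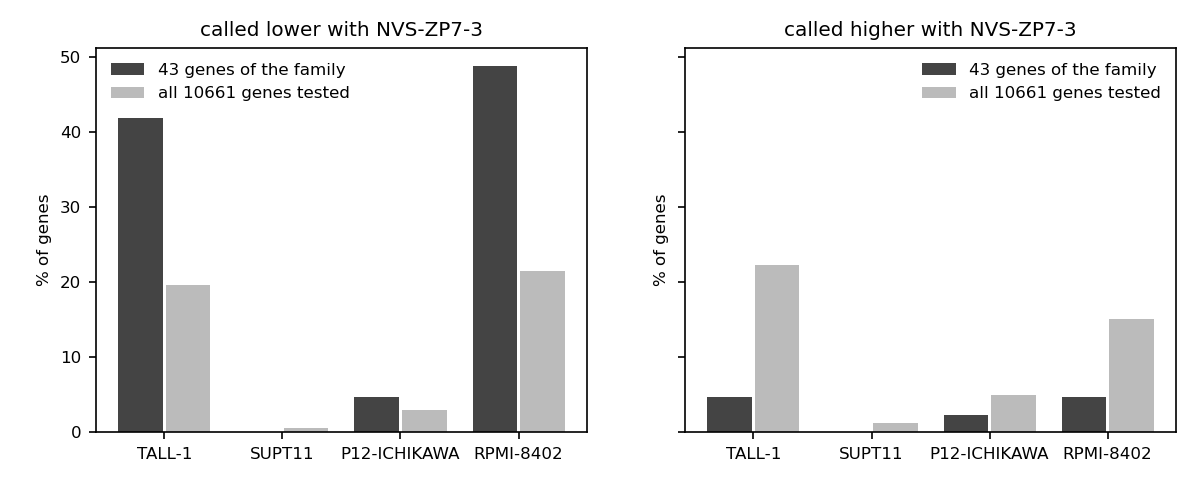
Share of the 43 tested proteasome genes (dark bars) and of all 10661 tested genes (light bars) called lower (left) and higher (right) with NVS-ZP7-3 in each line, in percent. In TALL-1 41.9% and in RPMI-8402 48.8% of the proteasome genes were called lower, against 19.6% and 21.5% of all genes.

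The median change of the 43 genes was -0.10 in TALL-1, -0.13 in RPMI-8402, -0.04 in P12-ICHIKAWA and -0.04 in SUPT11, where the median over all genes was 0.00 in TALL-1, P12-ICHIKAWA and SUPT11 and -0.02 in RPMI-8402. Changes below 0 numbered 34 of the 43 in TALL-1, 35 in RPMI-8402, 32 in P12-ICHIKAWA and 33 in SUPT11, against 45.7, 54.1, 47.0 and 46.6% of all genes. Averaged over the 4 lines, 28 of the 43 fell and 1 rose, against 24.5% and 22.4% of all genes. Of the genes called lower, 13 were shared between TALL-1 and RPMI-8402, 72.2% of those in TALL-1 and 61.9% of those in RPMI-8402, where the corresponding shares over all genes were 50.1% and 45.7%. These 13 were PSMA2, PSMA4, PSMA7, PSMB1, PSMB3, PSMB6, PSMB10, PSMC1, PSMC3, PSMD1, PSMD11, PSMD12 and PSME3. With the ACTB 3' minus 5' difference as a covariate, 7 of the 20 calls in TALL-1 and 8 of the 23 in RPMI-8402 were kept, and the median change of the 43 genes was -0.086 and -0.10; without the 3 arrays with foreign transcripts, 17 and 15 were kept.

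**Figure D2:**
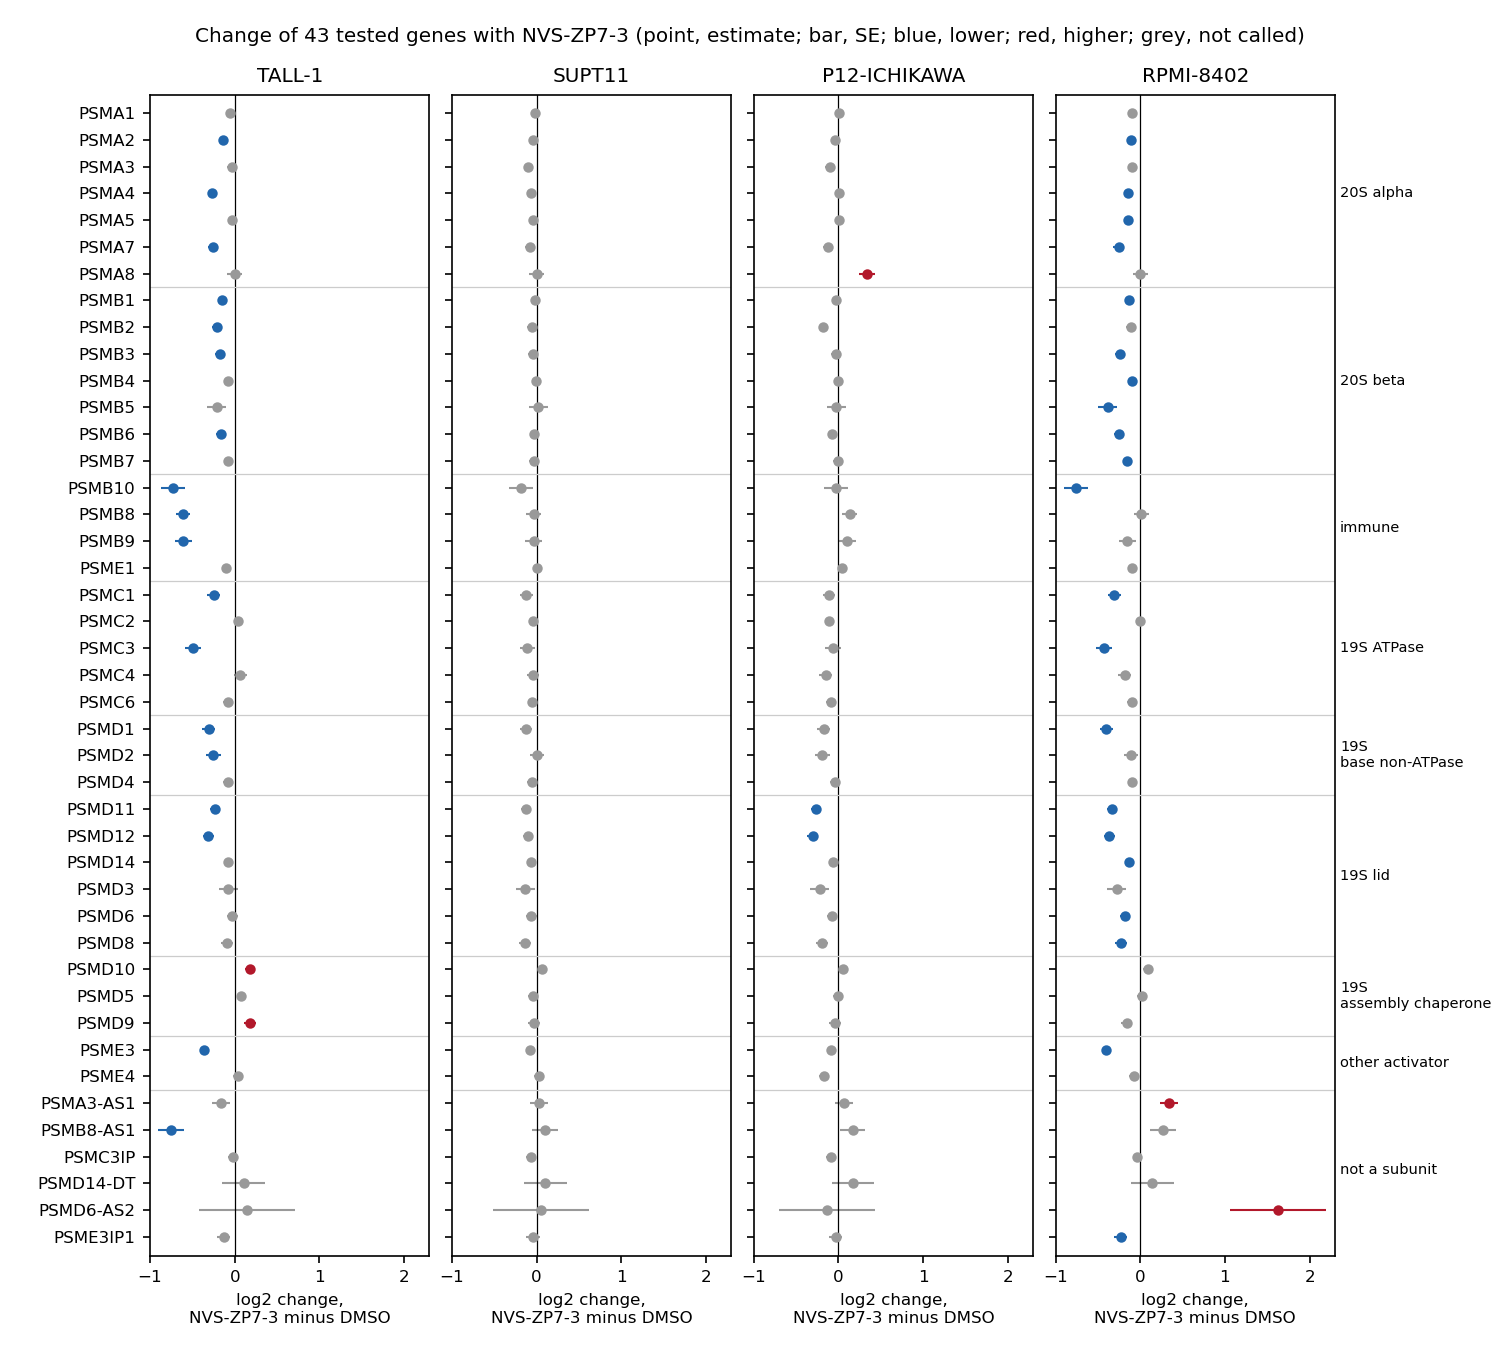
Change of each of the 43 tested genes with NVS-ZP7-3 in the 4 lines, on the log2 scale (horizontal axis), with genes grouped by role down the page. Points are estimates and bars standard errors from limma, blue marks genes called lower, red higher and grey not called; SUPT11 holds no coloured point, and most coloured points of TALL-1 and RPMI-8402 lie between 0 and -0.5.

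Core subunits were lowered in the same 2 lines. No core gene was called lower in SUPT11 or P12-ICHIKAWA, where 0.582% and 2.98% of all genes were. Of 14 core genes, 7 fell in TALL-1 and 10 in RPMI-8402, with medians of -0.14 and -0.14. Of all genes, 19.6% and 21.5% were called lower in these lines. In the outer rings of alpha subunits, which gate entry to the core, PSMA7 fell by 0.26 ± 0.061 in TALL-1 and by 0.25 ± 0.061 in RPMI-8402 (SE, 3 arrays per group; limma adjusted p = 0.00226 and 0.00295). PSMA4 fell by 0.27 ± 0.047 in TALL-1 and by 0.14 ± 0.047 in RPMI-8402, and PSMA1 and PSMA3 were called in no line. In the beta rings, 4 of 7 genes fell in TALL-1 and 6 of 7 in RPMI-8402. On the average over the lines all 7 were called lower, by 0.044 to 0.15, against 24.5% of all genes.

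Among the beta subunits, 3 carry the constitutive proteolytic sites. PSMB5, the chymotrypsin-like subunit and main target of proteasome inhibitor drugs, read 11.53, 11.50 and 11.62 with NVS-ZP7-3 in RPMI-8402, against 11.995, 11.92 and 11.87 with DMSO. The 2 groups did not overlap, and the change was -0.38 ± 0.11 (limma adjusted p = 0.0117). In TALL-1 PSMB5 read 11.94, 12.18 and 12.19 with NVS-ZP7-3 against 12.40, 12.25 and 12.31 with DMSO, a change of -0.21 ± 0.11 that was not called although the arrays did not overlap (limma adjusted p = 0.140). PSMB6, the caspase-like subunit, read 13.58, 13.53 and 13.57 with NVS-ZP7-3 against 13.79, 13.87 and 13.79 with DMSO in RPMI-8402, a fall of 0.25 ± 0.053, and 13.37, 13.47 and 13.52 against 13.66, 13.52 and 13.68 in TALL-1, a fall of 0.16 ± 0.053. All RPMI-8402 treated arrays were below the controls, while in TALL-1 the groups met at 13.52. PSMB7, the trypsin-like subunit, read 14.60, 14.55 and 14.65 with NVS-ZP7-3 in RPMI-8402 against 14.78, 14.77 and 14.71 with DMSO (change -0.15 ± 0.054, limma adjusted p = 0.0320), again with no overlap. With all its probe sets averaged, the change there was 0.52 and not called (limma adjusted p = 0.134). In SUPT11 and P12-ICHIKAWA the 3 genes changed by between -0.072 and 0.022 and none was called. With the ACTB covariate the adjusted p of PSMB5 in RPMI-8402 was 0.316, that of PSMB7 0.322 and that of PSMB6 in TALL-1 0.317, while PSMB6 in RPMI-8402 stayed called at 0.0161. PSMB7 in RPMI-8402 also lost its call with quantile normalization, the replicate number as a block or the HBB covariate (adjusted p = 0.0976, 0.0930 and 0.0508). The same held without DMSO replicate 1 or 2 or NVS-ZP7-3 replicate 1 or 2 of that line (0.0746 to 0.114). PSMB6 in TALL-1 lost its call in the fit of that line alone (0.114), and PSMB5 in RPMI-8402 with the block (0.0578). The call of PSMB6 in TALL-1 was also lost without DMSO replicate 1 or 3 or NVS-ZP7-3 replicate 1 of that line (0.0646, 0.0821 and 0.105).

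PSMA8, the alpha subunit of the germ cell proteasome that takes the place of PSMA7 in testis, was expressed in 1 line. It read 11.12, 11.52 and 11.74 with NVS-ZP7-3 in P12-ICHIKAWA against 11.12, 11.08 and 11.16 with DMSO, and 2.18, the floor, on every array of the other lines. It therefore passed the filter only through P12-ICHIKAWA. Its change there was 0.34 ± 0.091 (limma adjusted p = 0.0265), but the groups overlapped at 11.12, the groups at the floor have almost no spread and lower the shared estimate, and in the fit of the P12-ICHIKAWA arrays alone the adjusted p was 0.416.

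**Figure D3:**
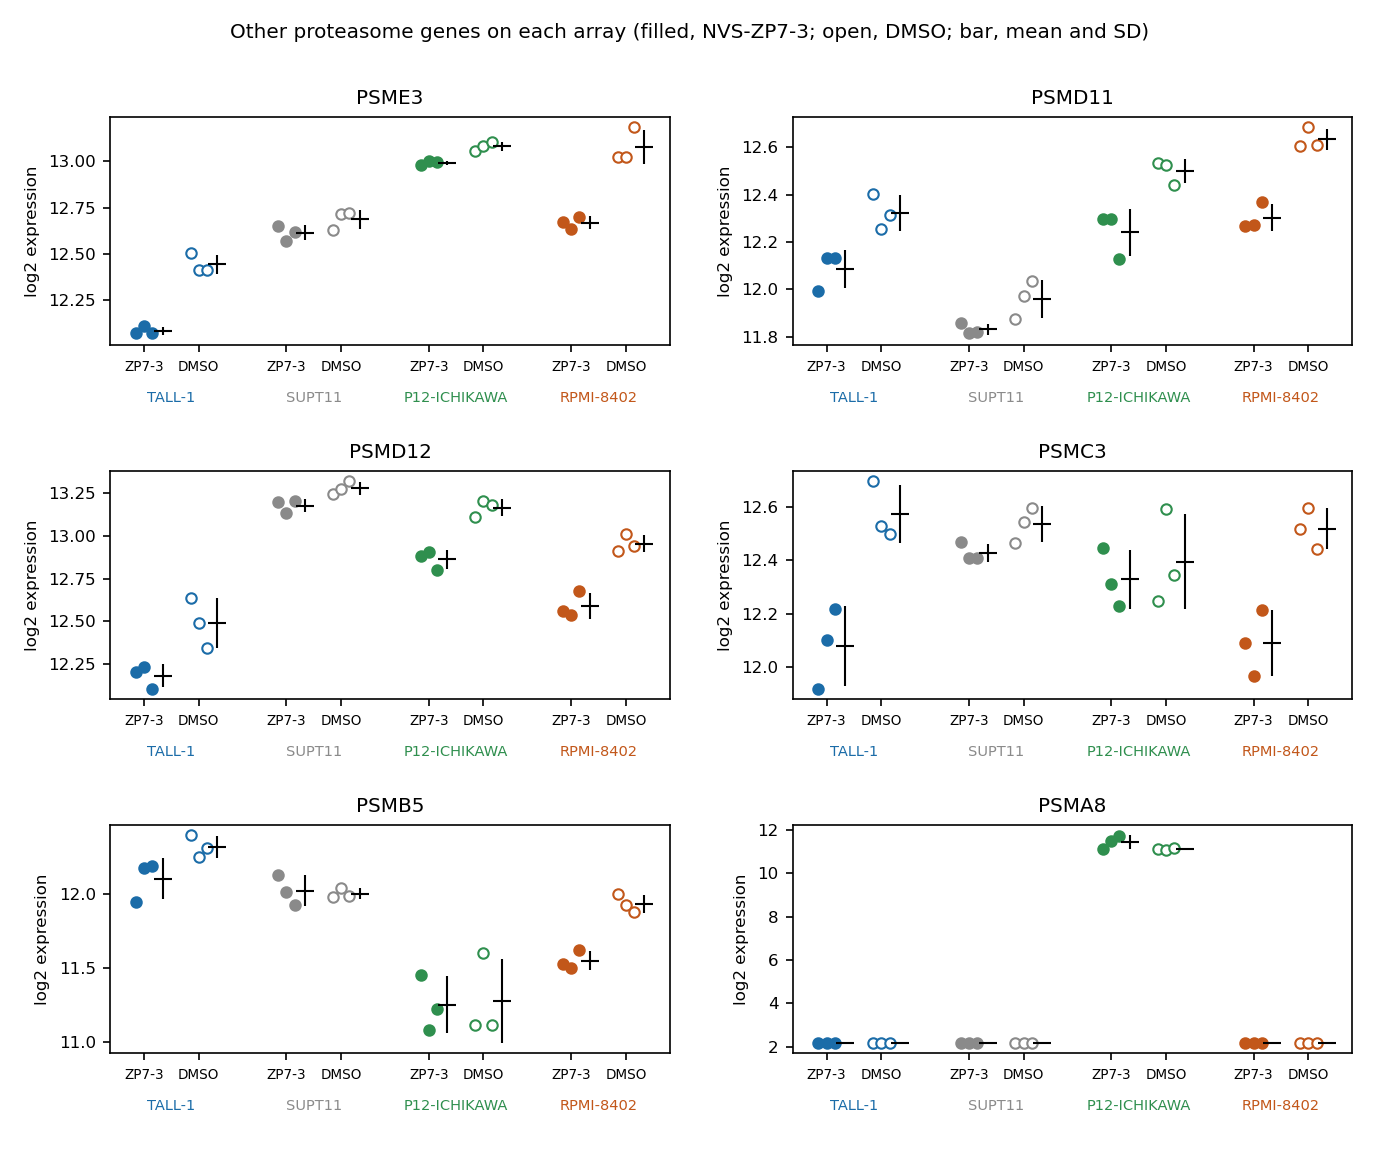
Log2 expression of PSME3, PSMD11, PSMD12, PSMC3, PSMB5 and PSMA8 on each array (vertical axis, own range per panel), with NVS-ZP7-3 (ZP7-3, filled) left of DMSO (open) in each line and the mean and SD of 3 arrays as a bar. In RPMI-8402 the treated arrays of the first 5 genes all lie below the controls, and PSMA8 leaves the floor of 2.18 in P12-ICHIKAWA alone.

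The regulatory particle was lowered in the same lines, and held the only 2 of the 43 genes that fell in 3 lines. Of its 14 tested genes, 6 fell in TALL-1, 8 in RPMI-8402 and 2 in P12-ICHIKAWA, and none rose. The shares of all genes called lower in these lines were 19.6, 21.5 and 2.98%. The ATPase PSMC3, which contacts the core with its tail, read 11.92, 12.10 and 12.22 with NVS-ZP7-3 in TALL-1 against 12.70, 12.53 and 12.50 with DMSO, and 12.09, 11.97 and 12.21 against 12.52, 12.60 and 12.44 in RPMI-8402. In both lines all treated arrays lay below the controls, by 0.49 ± 0.092 and 0.43 ± 0.092 on average (limma adjusted p = 0.000246 and 0.00117). With the ACTB covariate both calls were lost, at adjusted p = 0.201 and 0.0546. PSMC1, another ATPase, fell by 0.25 ± 0.076 in TALL-1 and 0.31 ± 0.076 in RPMI-8402, whereas PSMC2, PSMC4 and PSMC6 were called in no line. PSMD1, the large scaffold of the base that receives ubiquitin-binding proteins, fell by 0.31 ± 0.074 and 0.40 ± 0.074, and its second probe set fell by 0.57 and 0.53. PSMD4, a ubiquitin receptor of the base, was called in no line, with changes from -0.091 to -0.040.

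In the lid, PSMD11 and PSMD12 fell in TALL-1, RPMI-8402 and P12-ICHIKAWA, where 1.48% of all genes were called lower in 3 lines or more. PSMD11 clamps the lid to the core, and its abundance is known to promote assembly of the whole proteasome in human embryonic stem cells. It read 12.30, 12.30 and 12.13 with NVS-ZP7-3 in P12-ICHIKAWA against 12.53, 12.52 and 12.44 with DMSO, and 12.27, 12.27 and 12.37 against 12.61, 12.68 and 12.61 in RPMI-8402. In TALL-1 it read 11.99, 12.13 and 12.13 with NVS-ZP7-3 against 12.40, 12.25 and 12.31 with DMSO. The groups did not overlap in any of these lines, and the falls were 0.26, 0.33 and 0.24 (SE 0.059; limma adjusted p = 0.0088, 0.000219 and 0.00296). With the ACTB covariate the change in TALL-1 was -0.22 ± 0.094 and the call was lost (adjusted p = 0.0945).

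PSMD12, a neighbouring scaffold subunit of the lid, read 12.88, 12.91 and 12.80 with NVS-ZP7-3 in P12-ICHIKAWA against 13.11, 13.20 and 13.18 with DMSO, 12.56, 12.54 and 12.68 against 12.91, 13.01 and 12.94 in RPMI-8402, and 12.20, 12.23 and 12.10 against 12.63, 12.49 and 12.34 in TALL-1. Again no treated array reached a control, with falls of 0.30, 0.36 and 0.31 (SE 0.063; limma adjusted p = 0.00445, 0.000154 and 0.000526). In SUPT11 PSMD11 changed by -0.13 ± 0.059 and PSMD12 by -0.10 ± 0.063, neither called, and the F test over the lines called neither gene as changing differently among them, although SUPT11 against the mean of the other 3 lines was called for PSMD12 (0.22 ± 0.072, limma adjusted p = 0.0435). PSMD12 in TALL-1 lost its call in the fit of that line alone (adjusted p = 0.0531). PSMD11 in P12-ICHIKAWA lost its call with HBB as a covariate (adjusted p = 0.0999), without P12-ICHIKAWA NVS-ZP7-3 replicate 3 (0.0556) and in the fit of that line alone (0.130). Their second, dimmer probe sets fell less: that of PSMD11 was called in no line, and that of PSMD12 in RPMI-8402 only. In the fit over 20461 single-gene probe sets behind these values, 37.9% were called in TALL-1, 34.6% in RPMI-8402, 6.27% in P12-ICHIKAWA and 1.42% in SUPT11.

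Another 3 lid genes were called lower in RPMI-8402, and the F test called none of the 6 tested lid genes as changing differently among the lines. Of all genes, 21.5% were called lower in RPMI-8402 and 35.8% by the F test. PSMD14, the deubiquitinase of the lid, fell by 0.13 ± 0.042, PSMD8 by 0.23 ± 0.073 and PSMD6 by 0.18 ± 0.062, and PSMD3 changed by -0.275 ± 0.11 without being called (limma adjusted p = 0.0637). The call of PSMD6 was lost with the ACTB covariate (adjusted p = 0.0562), without RPMI-8402 DMSO replicate 1 or 2 (0.0797 and 0.114) and without any 1 of its 3 treated arrays (0.0605, 0.0713 and 0.0664). Averaged over the lines, all 6 tested lid genes were called lower, by 0.084 to 0.27, against 24.5% of all genes. PSMD6 carried the only pair of probe sets, among 92 pairings of a gene and a line with 2 or more probe sets, that were called in opposite directions. Its brightest probe set, at a mean level of 13.5, fell by 0.18 in RPMI-8402, and a dim one, at a mean level of 4.53, rose by 1.55 ± 0.45.

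None of the 3 assembly chaperones of the base was called lower in any line, and 2 rose in TALL-1. Of all genes, 22.3% were called higher in TALL-1. The shares called lower were 19.6% in TALL-1, 21.5% in RPMI-8402, 2.98% in P12-ICHIKAWA and 0.582% in SUPT11, so 3 genes are too few to set apart from them. PSMD10 (gankyrin), which holds an ATPase during assembly, read 12.86, 12.85 and 12.77 with NVS-ZP7-3 in TALL-1 against 12.67, 12.57 and 12.70 with DMSO, a rise of 0.18 ± 0.058 with no overlap (limma adjusted p = 0.0182). PSMD9 read 11.69, 11.72 and 11.81 against 11.71, 11.44 and 11.53, a rise of 0.18 ± 0.070 with 1 treated array below the highest control (limma adjusted p = 0.0453). PSMD5 changed by 0.075 ± 0.054 and was not called, and no chaperone was called in the other lines. In RPMI-8402 PSMD9 went the other way, by -0.16 ± 0.070, with all treated arrays below the controls (limma adjusted p = 0.0805). That change was called in the fit without TALL-1 DMSO replicate 1 (adjusted p = 0.0481). The TALL-1 rises of PSMD10 and PSMD9 both lost their calls when each array was centred on its median (adjusted p = 0.0858 and 0.0974). Both were also lost when TALL-1 NVS-ZP7-3 replicate 1 or 2 or DMSO replicate 2 was left out, and without the 3 arrays with foreign transcripts (0.0781 and 0.0803). The call of PSMD9 was further lost in the fit of TALL-1 alone (0.168), with the block (0.116), without the filter (0.0717) and with the HBB covariate (0.0513). It was lost as well without TALL-1 DMSO replicate 3 or NVS-ZP7-3 replicate 3 (0.118 and 0.163), and without some single arrays of other lines. With the ACTB covariate their changes were 0.20 and 0.27 and neither was called (adjusted p = 0.116 and 0.0672).

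Among the activators that can cap the core in place of the 19S particle, PSME3 fell in TALL-1 and RPMI-8402 and PSME4 was called in no line. PSME3 (PA28 gamma), a nuclear activator that promotes degradation without ubiquitin, read 12.07, 12.11 and 12.07 with NVS-ZP7-3 in TALL-1 against 12.50, 12.41 and 12.41 with DMSO. In RPMI-8402 it read 12.67, 12.63 and 12.70 with NVS-ZP7-3 against 13.03, 13.02 and 13.18 with DMSO. The groups were apart in both lines, and the falls of 0.36 ± 0.045 and 0.41 ± 0.045 had the lowest adjusted p of the 43 genes in each (limma, 3.76e-06 and 1.20e-06).

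The other 3 probe sets of PSME3 fell as well, by 0.48 to 0.49 in TALL-1 and by 0.77 to 0.80 in RPMI-8402. In SUPT11 PSME3 changed by -0.075 ± 0.045 and in P12-ICHIKAWA by -0.088 ± 0.045, neither called, and the F test of a different change among the lines gave an adjusted p of 0.000413. Each line differed from the mean of the other 3, TALL-1 by -0.17, RPMI-8402 by -0.23, SUPT11 by 0.21 and P12-ICHIKAWA by 0.19 (limma adjusted p = 0.0216, 0.00426, 0.0103 and 0.0287). With the ACTB covariate PSME3 stayed lower in TALL-1 by 0.30 and in RPMI-8402 by 0.37 (adjusted p = 0.00381 and 8.85e-05).

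The immune subunits showed the deepest falls of any proteasome subunit, and these differed by line. In TALL-1, 3 of the 4 immune genes fell, with a median change of the 4 of -0.61 against -0.14 for the 14 core genes. With DMSO there, the 3 averaged 9.86 to 11.65, and the core genes apart from PSMA8 12.32 to 15.08. The fourth immune gene, PSME1, averaged 14.56 and changed by -0.10. The part of level in these differences was not tested. In RPMI-8402 PSMB10 alone fell, and in SUPT11 and P12-ICHIKAWA none was called. Over all genes 19.6% were called lower in TALL-1 and 21.5% in RPMI-8402. The promoters of 3 of these genes and of PSMB8-AS1 are shown because they hold letters of an interferon-stimulated response element (GAAA, any 2 bases, GAAA) or of an antioxidant response element, TGACNNNGC, which are the kinds of site through which interferon factors and NFE2L1 or NFE2L2 are known to act. The sequences are from RefSeq, build GRCh38.p14, run 5' to 3' on the strand of the gene from 250 bases before its start to 50 after, and have matches to either motif, on either strand, in capitals.
PSMB10 promoter, chr16:67936801-67937100, minus strand: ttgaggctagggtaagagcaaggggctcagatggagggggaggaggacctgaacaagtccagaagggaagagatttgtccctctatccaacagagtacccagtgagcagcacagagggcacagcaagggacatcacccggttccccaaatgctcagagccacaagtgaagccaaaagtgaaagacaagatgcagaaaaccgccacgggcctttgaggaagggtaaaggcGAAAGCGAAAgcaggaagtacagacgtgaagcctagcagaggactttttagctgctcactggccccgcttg
PSME1 promoter, chr14:24135944-24136243, plus strand: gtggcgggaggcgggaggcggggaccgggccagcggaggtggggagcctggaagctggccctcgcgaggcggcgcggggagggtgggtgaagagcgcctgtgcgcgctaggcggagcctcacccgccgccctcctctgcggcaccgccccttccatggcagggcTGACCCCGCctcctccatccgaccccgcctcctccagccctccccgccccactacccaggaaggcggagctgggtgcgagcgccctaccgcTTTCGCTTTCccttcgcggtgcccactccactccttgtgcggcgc
PSMB9 promoter, chr6:32853942-32854241, plus strand: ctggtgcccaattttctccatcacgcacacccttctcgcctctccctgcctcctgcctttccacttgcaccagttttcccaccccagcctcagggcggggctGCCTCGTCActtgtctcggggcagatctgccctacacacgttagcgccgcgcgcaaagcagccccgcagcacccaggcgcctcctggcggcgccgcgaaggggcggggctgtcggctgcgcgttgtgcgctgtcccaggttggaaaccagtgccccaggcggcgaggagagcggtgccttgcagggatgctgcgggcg
PSMB8-AS1 promoter, chr6:32843836-32844135, plus strand: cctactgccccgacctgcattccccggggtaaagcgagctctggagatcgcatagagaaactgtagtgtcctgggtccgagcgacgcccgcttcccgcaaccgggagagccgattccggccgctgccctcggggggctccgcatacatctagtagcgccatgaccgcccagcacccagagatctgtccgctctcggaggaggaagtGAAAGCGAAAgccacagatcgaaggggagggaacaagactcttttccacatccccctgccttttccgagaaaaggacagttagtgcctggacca
Counting the first base of the transcript as 0, the interferon element begins at position -21 in PSMB10 and -44 in PSMB8-AS1. PSME1 holds both motifs, PSMB9 an antioxidant element alone, and PSMB8, whose start lies between those of PSMB8-AS1 and PSMB9 on chromosome 6, held neither in its window.

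PSMB10 (MECL-1), the immune counterpart of PSMB7, read 8.88, 9.24 and 9.43 with NVS-ZP7-3 in TALL-1 against 10.19, 9.77 and 9.77 with DMSO. In RPMI-8402 it read 9.13, 9.13 and 9.39 with NVS-ZP7-3 against 9.97, 10.04 and 9.92 with DMSO. Every treated array of these lines lay below every control, and the changes of -0.73 ± 0.14 and -0.76 ± 0.14 left 0.604 and 0.589 of the DMSO level (limma adjusted p = 0.000381 and 0.000322). An exact two-sided permutation test of the RPMI-8402 arrays gave p = 0.1, the smallest that 3 against 3 allow. In SUPT11 PSMB10 read 8.39, 8.22 and 8.42 with NVS-ZP7-3 against 8.37, 8.53 and 8.67 with DMSO, and in P12-ICHIKAWA 10.09, 9.92 and 9.86 against 9.93, 10.23 and 9.79. Both pairs of groups overlapped, and neither change was called. With the ACTB covariate the change was -0.48 ± 0.22 in TALL-1, no longer called (adjusted p = 0.103), and -0.61 ± 0.17 in RPMI-8402 (adjusted p = 0.0124).

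PSMB8 (LMP7), which replaces PSMB5, and PSMB9 (LMP2), which replaces PSMB6, both lie in the MHC region and fell in TALL-1 but were called in no other line. PSMB8 read 10.83, 11.12 and 11.16 with NVS-ZP7-3 in TALL-1 against 11.74, 11.54 and 11.66 with DMSO. PSMB9 read 9.07, 9.26 and 9.44 with NVS-ZP7-3 against 9.99, 9.67 and 9.92 with DMSO. Neither pair of groups overlapped, and the falls were 0.61 ± 0.086 and 0.60 ± 0.10 (limma adjusted p = 1.35e-05 and 7.41e-05), which stayed called with the ACTB covariate (0.014 and 0.0343) and without the 3 arrays with foreign transcripts (0.000116 and 0.000711).

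In RPMI-8402 PSMB8 read 12.60, 12.45 and 12.62 with NVS-ZP7-3 against 12.46, 12.66 and 12.51 with DMSO, overlapping throughout. PSMB9 there read 11.75, 11.63 and 11.69 against 11.77, 11.98 and 11.79, all treated arrays lower but the change of -0.155 ± 0.10 not called (limma adjusted p = 0.247). The tests of TALL-1 against the mean of the other 3 lines gave -0.65 ± 0.10 for PSMB8 and -0.58 ± 0.12 for PSMB9 (limma adjusted p = 7.90e-05 and 0.000938). PSME1 (PA28 alpha), which caps the core in antigen processing, read 14.42, 14.47 and 14.49 with NVS-ZP7-3 in TALL-1 against 14.57, 14.54 and 14.56 with DMSO, and 14.42, 14.39 and 14.42 against 14.52, 14.52 and 14.49 in RPMI-8402. All its treated arrays were lower, yet the changes of -0.10 ± 0.042 and -0.099 ± 0.042 missed the threshold (limma adjusted p = 0.0612 and 0.0715) and were called in the fits of each line alone (0.0298 and 0.0224).

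**Figure D4:**
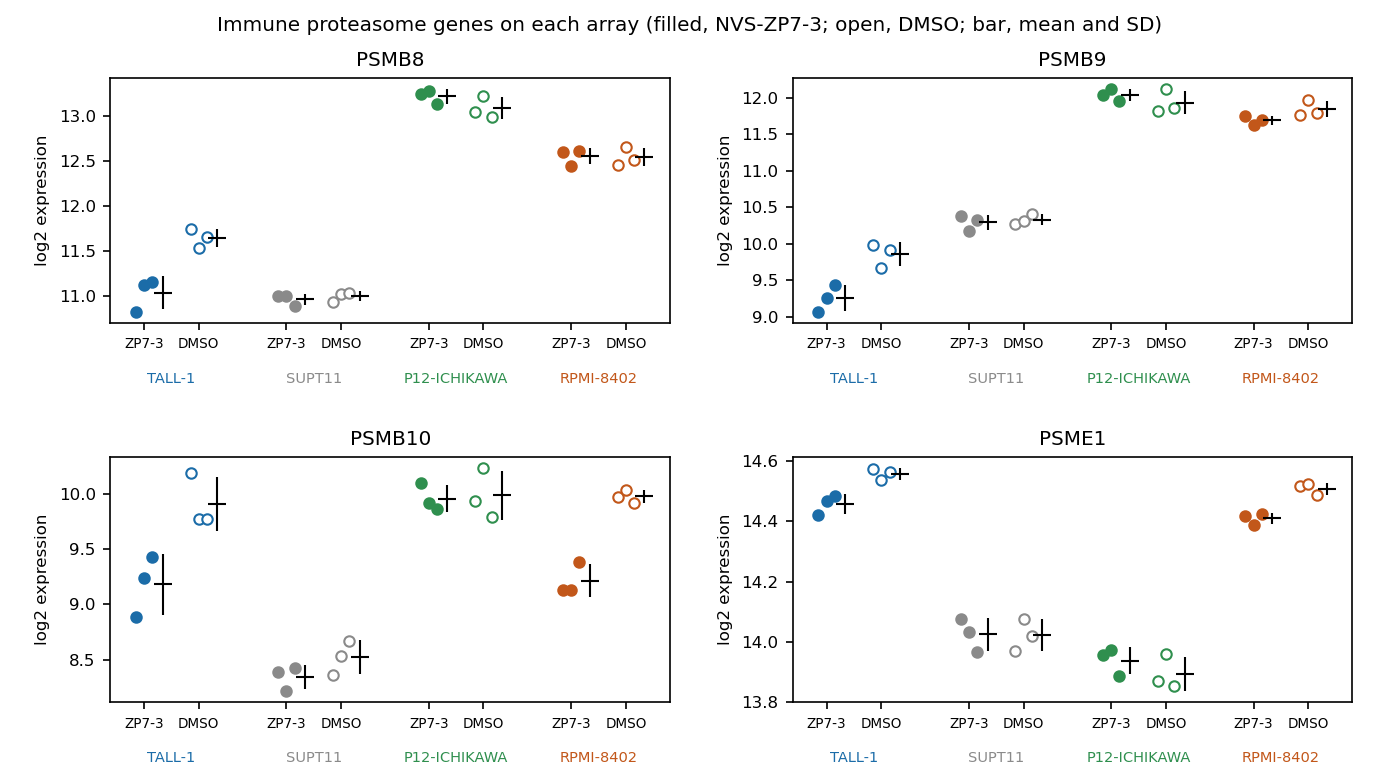
Log2 expression of PSMB8, PSMB9, PSMB10 and PSME1 on each array (vertical axis, own range per panel), with NVS-ZP7-3 (ZP7-3, filled) left of DMSO (open) in each line and the mean and SD of 3 arrays as a bar. PSMB8 and PSMB9 separate by treatment in TALL-1 (means 11.04 against 11.65 and 9.26 against 9.86), and PSMB10 in TALL-1 and RPMI-8402.

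Levels without compound differed among the lines for 41 of the 43 genes, against 96.3% of all genes. In the DMSO groups PSMB8 averaged 13.09 ± 0.12 in P12-ICHIKAWA, 12.55 ± 0.10 in RPMI-8402, 11.65 ± 0.10 in TALL-1 and 11.00 ± 0.056 in SUPT11 (SD, n = 3 each), with no overlap between neighbours in that order. PSMB9 averaged 11.93 ± 0.16, 11.85 ± 0.11, 9.86 ± 0.17 and 10.33 ± 0.074 in the same order of lines, where P12-ICHIKAWA and RPMI-8402 overlapped. Both immune genes of the MHC region were thus higher in P12-ICHIKAWA and RPMI-8402 than in TALL-1 and SUPT11, whereas PSMB10 averaged between 9.91 and 9.99 in all lines but SUPT11, at 8.52 ± 0.15.

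Of the genes that share the prefix without being subunits, 3 are antisense RNAs with a call. PSMB8-AS1, which runs opposite to PSMB8, read 6.829, 6.995 and 6.502 with NVS-ZP7-3 in TALL-1 against 7.825, 7.113 and 7.651 with DMSO, a fall of 0.75 ± 0.15 without overlap (limma adjusted p = 0.000469) that lost its call in the fit of that line alone (0.0743). PSMA3-AS1 read 11.52, 11.39 and 11.53 with NVS-ZP7-3 in RPMI-8402 against 11.15, 11.15 and 11.13 with DMSO, a rise of 0.34 ± 0.11 without overlap, while PSMA3 itself changed by -0.092 ± 0.051 and was not called. PSMD6-AS2 read 6.96, 6.73 and 8.05 with NVS-ZP7-3 in RPMI-8402 against 5.70, 5.41 and 5.77 with DMSO, a rise of 1.62 ± 0.57 (limma adjusted p = 0.0311), and its second probe set rose by 1.43 ± 0.26. The rises of PSMD6-AS2 and PSMA3-AS1 lost their calls without the 3 arrays with foreign transcripts (adjusted p = 0.0598 and 0.0615) and with the ACTB covariate (0.188 and 0.161), and that of PSMD6-AS2 also without RPMI-8402 NVS-ZP7-3 replicate 3 (1.22, adjusted p = 0.141). PSME3IP1, a partner of PSME3, fell by 0.23 ± 0.080 in RPMI-8402, and PSMC3IP, a meiotic recombination factor, was called in no line.

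The change differed among the lines for 7 of the 43 genes by the F test, against 35.8% of all genes. They were PSMB8, PSMB9, PSMB10, PSMB8-AS1, PSME3, PSMC3 and PSMA4. The remaining genes called in TALL-1 or RPMI-8402 and not in SUPT11 or P12-ICHIKAWA were not called as changing differently. In the tests of 1 line against the mean of the other 3, 7 genes were called in TALL-1, against 28.6% of all genes, and 2 each in RPMI-8402, SUPT11 and P12-ICHIKAWA, against 18.5, 15.2 and 8.38%. Of these, PSMD12 in SUPT11 stood higher by 0.22 ± 0.072 (limma adjusted p = 0.0435) and PSMD9 in TALL-1 by 0.26 ± 0.081 (0.0212).

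Among genes known to control the proteasome genes, some rose and others fell in TALL-1 and RPMI-8402. NFE2L1 rose in TALL-1 by 0.43 ± 0.050 and in RPMI-8402 by 0.17 ± 0.050 (limma adjusted p = 1.28e-06 and 0.0134), with 12.83, 12.85 and 12.93 in TALL-1 treated cells against 12.55, 12.35 and 12.43 in DMSO cells. NFE2L2 (NRF2), the oxidative stress factor that binds the same element, rose by 0.45 ± 0.089 and 0.46 ± 0.089, and VCP, the unfoldase that pulls NFE2L1 out of the endoplasmic reticulum, by 0.58 ± 0.092 and 0.33 ± 0.092. Treated and control arrays of these genes did not overlap in either line. NFE2L3, a relative of NFE2L1, fell by 0.94 ± 0.21 and 0.70 ± 0.21. In RPMI-8402 its groups overlapped, at 5.94, 5.80 and 6.73 with NVS-ZP7-3 against 7.09, 7.16 and 6.32 with DMSO. Of the 9 tested genes on a list of proteasome gene control, 3 rose and 1 fell in TALL-1, 4 rose and 2 fell in RPMI-8402, and none was called in SUPT11 or P12-ICHIKAWA. Of all genes, 22.3% rose and 19.6% fell in TALL-1, and 15.1% rose and 21.5% fell in RPMI-8402. In P12-ICHIKAWA 4.91% rose and 2.98% fell, and in SUPT11 1.18% rose and 0.582% fell. These shares are the background for these counts and for those of the lists that follow. The F test over the lines called NFE2L1, NFE2L2, NFE2L3 and VCP (adjusted p = 0.000246, 0.00926, 0.0262 and 0.000971).

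**Figure D5:**
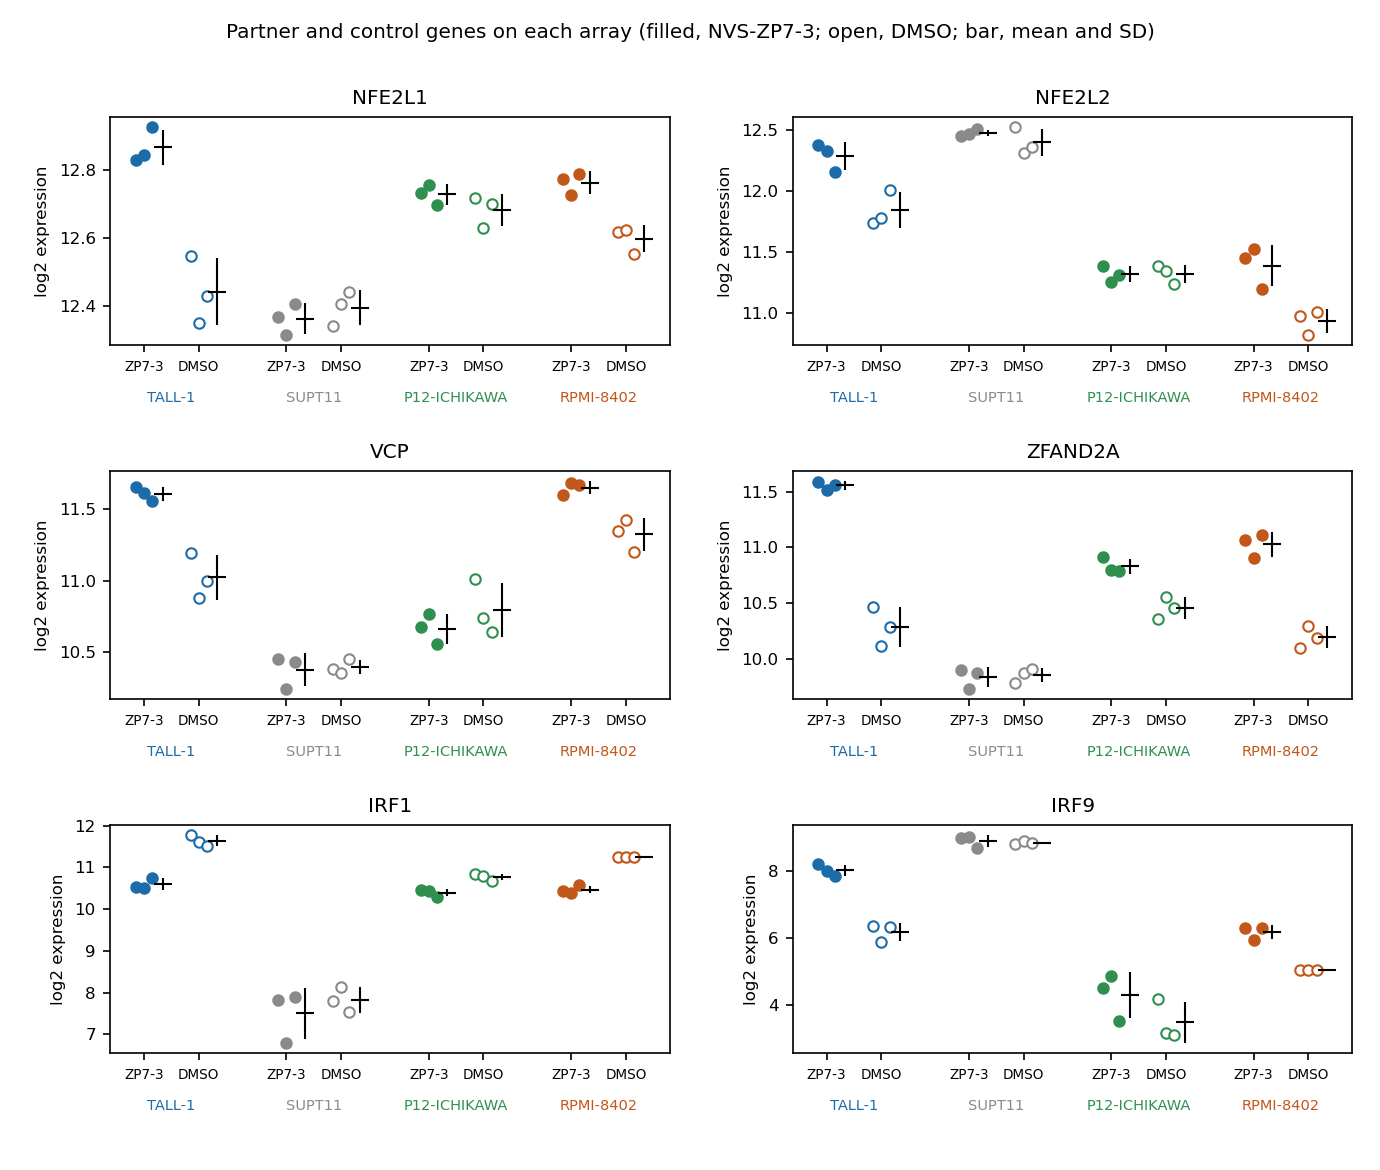
Log2 expression of NFE2L1, NFE2L2, VCP, ZFAND2A, IRF1 and IRF9 on each array (vertical axis, own range per panel), with NVS-ZP7-3 (ZP7-3, filled) left of DMSO (open) in each line and the mean and SD of 3 arrays as a bar. The first 4 genes and IRF9 lie higher and IRF1 lower in treated TALL-1 and RPMI-8402 cells, with no overlap between groups.

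Partners of the proteasome moved in both directions, with ZFAND2A set apart by the size of its rise. ZFAND2A (AIRAP), a proteasome-binding protein induced by arsenite, rose by 1.27 ± 0.082 in TALL-1, 0.83 ± 0.082 in RPMI-8402 and 0.38 ± 0.082 in P12-ICHIKAWA (limma adjusted p = 7.06e-10, 2.63e-07 and 0.00683). Its TALL-1 arrays read 11.59, 11.52 and 11.56 with NVS-ZP7-3 against 10.47, 10.11 and 10.28 with DMSO, and in SUPT11 it changed by -0.016 ± 0.082. POMP, which matures the 20S core, fell by 0.18 ± 0.034 in TALL-1 and 0.11 ± 0.034 in RPMI-8402, and PSMG1, a chaperone of the alpha ring, by 0.33 ± 0.064 in TALL-1. Of the 18 partners, 2 rose and 6 fell in TALL-1, 1 rose and 5 fell in RPMI-8402, and 1 rose and 1 fell in P12-ICHIKAWA. Over all genes 22.3% rose and 19.6% fell in TALL-1, and 4.91% rose and 2.98% fell in P12-ICHIKAWA. In RPMI-8402 falls outnumbered rises over all genes too, at 21.5% against 15.1%. Of 13 ubiquitin and shuttle genes, 2 rose and 4 fell in TALL-1 and 1 rose and 2 fell in RPMI-8402, the falls including the VCP cofactors UFD1 and NPLOC4 in both lines, and the ubiquitin gene UBB changed by at most 0.030 in size and was called in no line.

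The interferon factors and MHC class I genes that the immune subunits serve did not move in 1 direction. IRF1, an activator of PSMB8, PSMB9 and PSMB10, read 10.53, 10.51 and 10.76 with NVS-ZP7-3 in TALL-1 against 11.78, 11.62 and 11.52 with DMSO, and 10.43, 10.40 and 10.57 against 11.24, 11.26 and 11.25 in RPMI-8402. Its falls were 1.04 ± 0.20 and 0.78 ± 0.20, without overlap (limma adjusted p = 0.000304 and 0.00417), and the F test did not call a different change among lines (adjusted p = 0.122). IRF9, the DNA-binding subunit of an interferon-activated transcription factor, rose by 1.83 ± 0.28 in TALL-1 and 1.13 ± 0.28 in RPMI-8402. TAP1, a peptide transporter that shares its promoter region with PSMB9, changed by 0.11 ± 0.12 in TALL-1 without a call and rose by 0.41 ± 0.12 in RPMI-8402, and TAP2 and B2M were called in no line. PDIA3, a chaperone of class I loading and of general protein folding, rose in all 4 lines by 0.41 to 0.80. Of 18 tested genes on this list, 7 rose and 2 fell in TALL-1, 6 rose and 1 fell in RPMI-8402, 3 rose and 1 fell in P12-ICHIKAWA, and 3 rose in SUPT11. Over all genes the shares called higher were 22.3, 15.1, 4.91 and 1.18% in that order of lines.

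Promoter windows of the same length and build were found for 38 of the 44 genes, 32 of them subunits, chaperones or activators. TGACNNNGC stood in 10 of these 32 (31.2%), against 13.6% of 27305 promoters in the table, and the interferon element in 4 of 32 (12.5%) against 3.65%. The lid gene PSMD12 is shown as one that fell in 3 lines and holds the antioxidant motif, in capitals, from position -165, and PSMD11, which fell in the same lines, holds neither motif in its window.
PSMD12 promoter, chr17:67366528-67366827, minus strand: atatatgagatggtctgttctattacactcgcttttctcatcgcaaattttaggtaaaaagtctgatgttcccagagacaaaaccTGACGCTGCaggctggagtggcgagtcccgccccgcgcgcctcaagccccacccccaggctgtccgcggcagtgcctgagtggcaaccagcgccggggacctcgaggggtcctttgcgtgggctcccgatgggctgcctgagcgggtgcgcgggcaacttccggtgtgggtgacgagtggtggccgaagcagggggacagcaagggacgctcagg
Genes with and without a match were found among those that fell: PSMB3, PSMB9, PSMD1 and PSMD12 held TGACNNNGC, and PSMB10, PSMA4 and PSMB4 held the interferon element, while PSME3, PSMC3 and PSMD11 held neither. TGACNNNGC also stood in PSMC4, PSMD3, PSMD5, PSME1 and PSME4, which were called in no line, and in PSMD9, which rose in TALL-1. TGATGNAA, the core of a site for ATF4 with CHOP, stood in 0 of the 38 windows, against 3.67% of all promoters. CACGTG (E-box) stood in 9.38% of the 32 and 7.43% of all, CCAAT (NF-Y) in 46.9% and 35.7%, and CCACG, part of the endoplasmic reticulum stress element, in 37.5% and 37.9%, each searched on both strands. A match is a run of letters and not a shown binding site.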

How the data were processed

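RNA of 24 samples was measured on Affymetrix 3' expression arrays, per the labels' protocols. One deposited table holds log2 values for 54675 probe sets. GCRMA and limma were used by the authors, per the submitters' processing notes; their order and settings are not given in the sources used here. From the values, 2.18 is a floor on every array, so changes below it are not seen, and the number of arrays limits the precision, since arrays have no read depth.

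Gene names came from the platform annotation, updated by RefSeq (GRCh38.p14); 41097 had 1 gene and 1801 had several. Each gene was read from its brightest probe set. All 24 arrays entered a model of 8 group means (limma 3.58.1, R 4.3.3; lmFit, contrasts.fit, eBayes; 16 residual degrees of freedom), with Benjamini-Hochberg adjustment over the 10661 genes that reached log2 4 on 3 arrays or more. F tests asked whether the change, or the DMSO level, differed among lines. The fit was tested on simulated data.

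An array was set apart when at least 10% of the genes below log2 2.5 on the other arrays of its line, and at 10 or more on all arrays of another line, reached 3 or more. Alternatives were an intensity trend, median centring, quantile normalization, averaged probe sets, other filters, each line alone, a stricter threshold, the replicate number as a block, ACTB and HBB covariates, leaving out each array, and leaving out the 3 arrays set apart, the last chosen after seeing the data.

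Members and gene lists were chosen with earlier results of these data known. All tested members could be named. Per-array values were given by rule for the 3 largest called rises and falls of a line, the immune and catalytic subunits, the 3 widest ranges among lines, members with opposed probe sets, and, from other lists, up to 4 genes with the largest called mean change and a set of key genes. Values of PSMD1, PSMC1 and other members are changes only. Some key genes are not reported here.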

Additional observations from a re-analysis of the deposited data

Results flagged for a closer look

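The change with NVS-ZP7-3 differed among the 4 lines for 7 of the 43 genes, by the F test of the interaction in limma with adjustment over all genes, against 35.8% of all genes. For PSME3 the adjusted p was 0.000413, with changes from -0.41 in RPMI-8402 to -0.075 in SUPT11. For PSMB8 it was 0.000424, with -0.61 in TALL-1 and 0.13 in P12-ICHIKAWA at the ends. PSMB8-AS1 had 0.00276, between -0.75 in TALL-1 and 0.27 in RPMI-8402, and PSMB9 had 0.00336, between -0.60 in TALL-1 and 0.10 in P12-ICHIKAWA. PSMB10 had 0.0108, between -0.76 in RPMI-8402 and -0.029 in P12-ICHIKAWA. PSMA4 had 0.0160, between -0.27 in TALL-1 and 0.011 in P12-ICHIKAWA, and PSMC3 had 0.0227, between -0.49 in TALL-1 and -0.065 in P12-ICHIKAWA. ACTB 3' minus 5' signal moved with treatment in TALL-1 and RPMI-8402, and each gene's lowest change was in 1 of these 2 lines; with it as a covariate 5 genes were called, and its part in the differences was not tested further.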

How the results depend on the processing

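With the ACTB 3' minus 5' covariate, the proteasome genes called numbered 8 in TALL-1 (20 in the fit reported), 10 in RPMI-8402 (23), 15 on average over the lines (29) and 0 for P12-ICHIKAWA against the other lines (2), with 1 for RPMI-8402 (2). At adjusted p below 0.01 there were 12 in RPMI-8402, 18 on average, 4 for the change differing among lines (7), and 4, 1, 0 and 0 for TALL-1, RPMI-8402, P12-ICHIKAWA and SUPT11 against the other 3 (7, 2, 2 and 2). The HBB covariate gave 1 in P12-ICHIKAWA (3), 17 on average and 1 for SUPT11 against the others. Without the 3 arrays with foreign transcripts there were 15 in RPMI-8402 and 1 each for SUPT11, P12-ICHIKAWA and RPMI-8402 against the others. The P12-ICHIKAWA arrays alone gave 1.

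With the replicate number as a block, 17 were called in TALL-1, 17 in RPMI-8402, 23 on average and 4 for differing among lines, and 4, 1, 0 and 1 for TALL-1, RPMI-8402, P12-ICHIKAWA and SUPT11 against the others; same-numbered arrays share only a number, since 3 of 12 such pairs had deviations correlated above 0.1 and 5 of 12 treated arrays correlated best with their own. The mean of all probe sets gave 11 for differing among lines, as did the intensity trend, under which P12-ICHIKAWA and RPMI-8402 against the others had 5 and 4. Centring gave 12, 4 and 1 for TALL-1, P12-ICHIKAWA and RPMI-8402 against the others, and in TALL-1 0 genes higher and 26 lower. Quantile normalization gave 1 for SUPT11 and 5 for P12-ICHIKAWA, no filter 1 for SUPT11 and a filter at log2 6 4 for P12-ICHIKAWA. The causes of these shifts were not tested.

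Leaving out 1 array gave 14 to 21 in TALL-1, 0 to 0 in SUPT11, 1 to 4 in P12-ICHIKAWA, 15 to 26 in RPMI-8402, 23 to 31 on average, 7 to 10 for differing among lines, 40 to 41 for DMSO levels, and 5 to 8, 1 to 5, 0 to 4 and 1 to 2 for TALL-1, RPMI-8402, P12-ICHIKAWA and SUPT11 against the others. The lowest counts in RPMI-8402 and P12-ICHIKAWA were without RPMI-8402 NVS-ZP7-3 replicate 1 and P12-ICHIKAWA NVS-ZP7-3 replicate 3. With the mean of all probe sets, PSMB7 and PSMD6 reversed in RPMI-8402, to 0.52 (adjusted p = 0.134) and 0.69 (0.0142); each then includes a dim probe set with the opposite sign. A line alone gives no test among lines or of the average, and the block none of DMSO levels.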
